A study of Homo sapiens with 6 samples.

Results

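Heparan sulfate synthesis and editing was described through 10 genes of 28265 gene rows in the deposited tables: HS6ST2, HS6ST1, HS2ST1, HS3ST1, EXT1, EXT2, NDST1, NDST2, SULF1 and SULF2. They were taken by gene name, and had been chosen by their CPM in these same libraries, 3 GlnIND against 3 parental, so their levels are given as a description, without a test. RNA was sequenced from MDA-MB-231, a long-established human triple-negative breast cancer line, in 3 parental libraries. RNA of its derivative MDA-MB-231GlnIND, which grows without glutamine, was sequenced in 3 libraries. Parental cells grew in RPMI 1640 that contained glutamine, with 10% fetal bovine serum. GlnIND cells were kept for more than 6 weeks in RPMI 1640 lacking glutamine, with 10% dialyzed serum. Cell population, glutamine supply and serum type differed together and cannot be told apart. Neither separate cultures behind the 3 libraries of a group nor the clonal state of GlnIND is given in the labels. All p-values therefore rest on the spread among libraries, possibly a technical one.

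Heparan sulfate is a sugar chain carried by proteins of the cell surface and the matrix. Polymerases extend it in the Golgi, and sulfotransferases then add sulfate groups at the N, 2-O, 6-O and 3-O positions. The sulfation pattern sets which growth factors, chemokines and matrix proteins the chain binds. After secretion of the chain, extracellular sulfatases can remove 6-O-sulfate again, and heparanase can cut it.

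Total counts ranged from 18256219 to 24594248 per library. Values are given as CPM, counts scaled to a common library size with composition factors. Among genes with fewer than 20 counts, 60.6% to 65.0% per library held an even number, as counting each mate of a pair would give. The floor of detection was therefore set at 6 counts, or 3 read pairs, which is 0.230 to 0.343 CPM in a single library. Ratios in read pairs were computed on halved counts. Floors and intervals cover counting error only. Parental 1 stood furthest from the other libraries of its group, with a median absolute log2 difference of 0.238 against 0.128 and 0.165 for parental 2 and 3 and at most 0.0857 in the GlnIND group. Markers matched the label of the line in part. The summed level of VIM, CD44, AXL and CAV1 was at least 6510 CPM in every library, and of the receptor genes ESR1 and PGR were under 1 CPM everywhere, while ERBB2 lay between 31.5 and 65.2 CPM. Of the epithelial markers CDH1 was under 1 CPM in every library, and EPCAM averaged 14.3 ± 2.62 CPM in parental against 2.22 ± 0.366 CPM in GlnIND libraries (SD, 3 libraries each). Of 6 markers of other cell types, PTPRC, COL3A1 and ADIPOQ were under 1 CPM in every library. The 6 together summed to 161 to 205 CPM in the parental and 183 to 185 CPM in GlnIND libraries, nearly all of it CD68. PECAM1 was at 2.41 and 4.34 CPM and PDGFRB at 1.07 and 3.08 CPM in the means of parental and GlnIND libraries, and their part in the results was not tested.

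HS6ST2, a 6-O-sulfotransferase of heparan sulfate encoded on chromosome X, was not detected in parental cells. It had 0 counts in parental 1, 2 and 3, and 245, 329 and 364 counts in GlnIND 1, 2 and 3. In the GlnIND libraries this was 11.0, 13.7 and 14.0 CPM (mean 12.9 ± 1.65 SD, n = 3). The 3 GlnIND libraries were close to each other and far above the floor. Set against a floor of 6 counts over the whole parental group, the level was at least 122-fold higher in GlnIND cells. The same bound is 78.3, 83.5 and 79.5 without parental 1, 2 and 3, since the floor then rests on fewer parental counts. Over all tested genes, 0.552% had 0 to 6 parental counts and at least 1 CPM in GlnIND cells. In RNA from whole cultures, a transcript in a few cells and a lower level in all cells cannot be told apart.

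Promoter sequences were available from RefSeq (GRCh38.p14) for 8 of the 10 genes. That of HS6ST2 is shown beside that of its paralog HS6ST1, which both groups expressed, and that of GPC4, a neighbour described further on. Each runs from 250 bases before to 50 bases after the annotated start, 5′ to 3′ on the minus strand, with CG pairs in capitals.
HS6ST2, chrX:132961321-132961620: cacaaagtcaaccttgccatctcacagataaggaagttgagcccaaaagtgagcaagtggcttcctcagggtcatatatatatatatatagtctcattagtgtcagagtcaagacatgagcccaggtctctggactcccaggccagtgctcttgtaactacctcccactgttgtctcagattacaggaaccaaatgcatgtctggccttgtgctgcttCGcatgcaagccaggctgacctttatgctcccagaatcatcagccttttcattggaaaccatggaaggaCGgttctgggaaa
HS6ST1, chr2:128318819-128319118: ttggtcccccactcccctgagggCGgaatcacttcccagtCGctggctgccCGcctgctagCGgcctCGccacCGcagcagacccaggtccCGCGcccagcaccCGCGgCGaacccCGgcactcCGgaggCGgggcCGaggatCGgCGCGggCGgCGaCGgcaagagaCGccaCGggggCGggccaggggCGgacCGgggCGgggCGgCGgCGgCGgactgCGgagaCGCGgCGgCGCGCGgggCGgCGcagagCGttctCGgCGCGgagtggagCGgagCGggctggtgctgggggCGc
GPC4, chrX:133415440-133415739: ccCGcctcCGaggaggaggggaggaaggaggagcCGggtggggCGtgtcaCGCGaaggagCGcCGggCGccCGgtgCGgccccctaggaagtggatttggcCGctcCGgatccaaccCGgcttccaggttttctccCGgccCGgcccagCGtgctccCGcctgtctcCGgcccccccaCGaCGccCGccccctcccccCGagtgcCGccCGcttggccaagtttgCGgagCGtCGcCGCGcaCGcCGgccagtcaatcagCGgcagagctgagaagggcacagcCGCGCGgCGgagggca
The HS6ST2 window held 2 CG pairs at a GC content of 47.3%, and 18.3% of 34796 distinct promoter windows of this length held at most as many. The HS6ST1 window held 47, a number that 2.4% of promoters reach, and the GPC4 window held 37. Among windows not shown, that of NDST1, at 148.5 to 178.1 CPM over all libraries, held 8. Those of SULF2, at the edge of detection, held 5, 46, 21 and 15. A link between CG pairs and expression was not tested. The pair CG reads the same on both strands, 96.0% of all promoters had at least 1, and the median was 14. GENCODE lists 5 HS6ST2 transcripts with 3 different starts, and gene counts do not tell which start was used.

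HS6ST1, the more broadly expressed 6-O-sulfotransferase, was present in all libraries. It stood at 8.33, 12.7 and 13.4 CPM in parental 1, 2 and 3 and at 15.65, 15.3 and 15.9 CPM in GlnIND 1, 2 and 3. All GlnIND libraries lay above all parental libraries, and parental 1 was the lowest. The log2 fold change of GlnIND over parental was 0.45 (SE 0.166), and 0.25 without parental 1. HS6ST3, the remaining family member, stood at 3.43 ± 0.193 CPM in the parental and 4.92 ± 0.752 CPM in the GlnIND group (SD, 3 libraries each). To compare these genes with each other, CPM was divided by exon length in kilobases (RPKM). The summed 6-O-sulfotransferase level was 2.56, 3.69 and 3.82 RPKM in parental 1, 2 and 3 and 6.88, 7.56 and 7.73 RPKM in GlnIND 1, 2 and 3. HS6ST2 made up 34.6%, 39.2% and 39.2% of this sum in the GlnIND libraries and 0% in the parental ones. The share of HS6ST1 was 86.4% ± 3.4 in parental and 53.8% ± 3.49 in GlnIND cells (SD, 3 libraries each). With the longest transcript in place of all exons, HS6ST2 made up 38.6% ± 2.7 of the GlnIND sum (SD, n = 3).

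**Figure D1:**
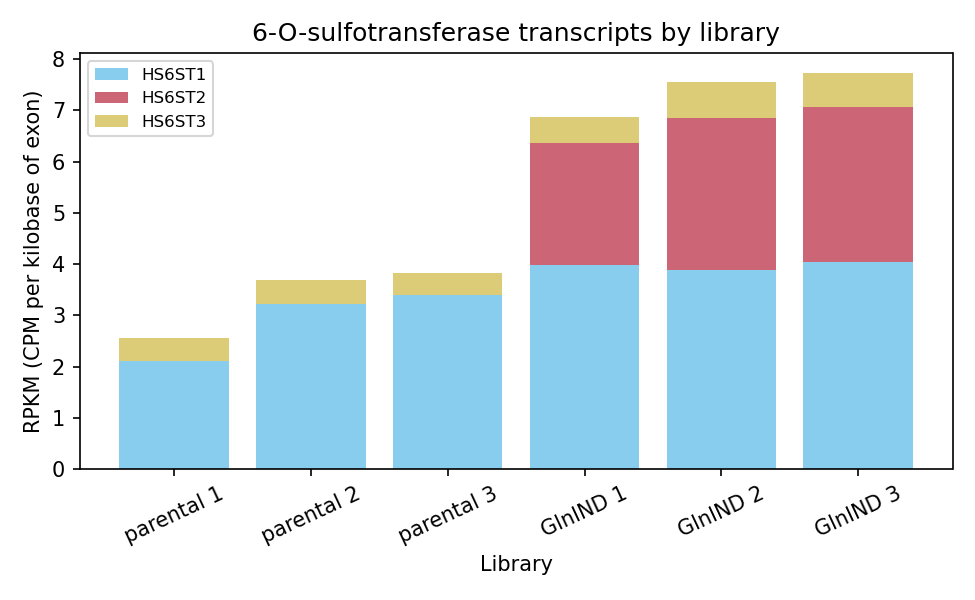
Level of the 3 heparan sulfate 6-O-sulfotransferase transcripts in each of the 6 libraries, stacked, in RPKM (CPM per kilobase of exon). The bars reach 2.56 to 3.82 RPKM in parental and 6.88 to 7.73 RPKM in GlnIND libraries, and HS6ST2 appears in the GlnIND bars alone.

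SULF1 and SULF2, the extracellular sulfatases that take 6-O-sulfate off finished chains, were at the edge of detection in both groups. SULF1 had 0, 0 and 2 counts in the parental and 2, 6 and 6 counts in the GlnIND libraries. No library exceeded 6 counts. In read pairs the ratio of GlnIND to parental was 5.5, with an exact Clopper-Pearson 95% interval of 0.707 to 248. SULF2 had 0, 0 and 3 counts in parental and 1, 1 and 0 counts in GlnIND libraries, below the floor in each, so no fold is given. Neither passed the filter on low counts.

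EXT1 and EXT2 form the polymerase complex that lengthens the chain. EXT1 stood at 288.2, 292.9 and 273.7 CPM in parental 1, 2 and 3 and 318.1, 309.4 and 315.2 CPM in GlnIND 1, 2 and 3. The groups did not overlap, by a narrow margin, with a log2 fold change of 0.14 (SE 0.0583). Without parental 3 it was 0.09. EXT2 stood at 107.6, 129.9 and 122.6 CPM in the parental and 83.7, 86.1 and 79.8 CPM in GlnIND 1, 2 and 3. All GlnIND libraries lay below all parental ones, and the log2 fold change was -0.53 (SE 0.0812). The partners thus stood on opposite sides of 0. In RPKM, EXT1 made up 52.6% ± 2.55 of their sum in parental and 63.8% ± 1.09 in GlnIND cells (SD, 3 libraries each). The 40 tested genes nearest to EXT2 on chromosome 11 had log2 fold changes with a median of -0.33, and 7 of them were above 0. With that shift subtracted EXT2 stood at -0.20. For EXT1 the median of the neighbours was 0.03.

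NDST1 and NDST2 remove acetyl groups along the chain and put sulfate in their place, the step on which the later sulfations depend. NDST1 was at 148.5, 176.8 and 169.0 CPM in the parental and 167.5, 178.1 and 163.3 CPM in GlnIND 1, 2 and 3. The groups overlapped, with a log2 fold change of 0.04 (SE 0.0774). Its sign turned without parental 1 (-0.04) or GlnIND 2 (0 after rounding) and with the neighbour shift subtracted (-0.02). NDST2, the less abundant enzyme here, was at 8.88, 12.01 and 11.6 CPM in the parental and 14.98, 15.9 and 14.7 CPM in GlnIND libraries. The groups did not overlap, parental 1 was the lowest, and the log2 fold change was 0.49 (SE 0.134). In RPKM the NDST2 share of the NDST1, NDST2 and NDST3 sum was 12.5% ± 0.868 in parental and 16.4% ± 0.0548 in GlnIND cells (SD, 3 libraries each).

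HS2ST1, the only 2-O-sulfotransferase of heparan sulfate, stood at 108.5, 108.9 and 104.1 CPM in the parental and 93.6, 91.1 and 96.6 CPM in GlnIND 1, 2 and 3. GlnIND libraries lay below parental libraries without overlap, at a log2 fold change of -0.19 (SE 0.0627). HS3ST1, which adds the 3-O-sulfate of the antithrombin binding site, stood at 12, 10.2 and 9.15 CPM in the parental and 8.92, 7.53 and 9.10 CPM in GlnIND libraries. Its ranges were separated only narrowly, between 9.15 in parental 3 and 9.10 in GlnIND 3. The log2 fold change was -0.30 (SE 0.145), and it was -0.19 without parental 1 and -0.22 without GlnIND 2. Among the 3-O-sulfotransferases the share of HS3ST1 in RPKM was 29.8% ± 3.08 in parental and 17.7% ± 1.44 in GlnIND cells (SD, 3 libraries each), and HS3ST3B1 took most of the rest.

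**Figure D2:**
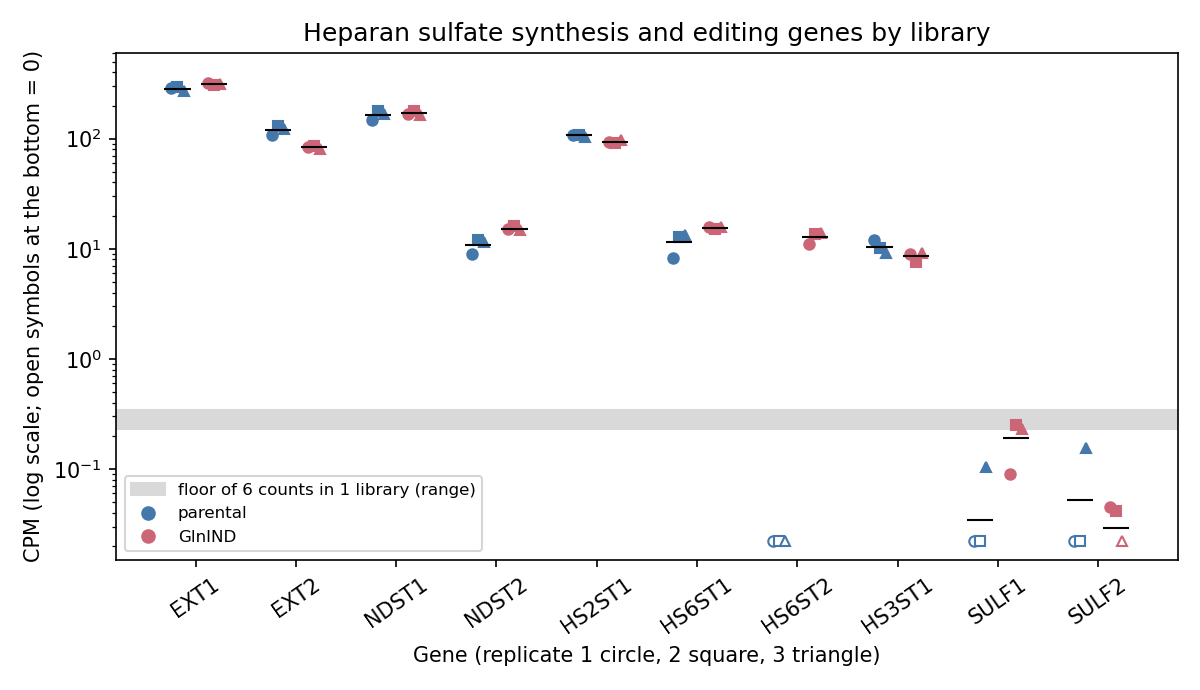
CPM of the 10 genes (log axis) in each library, with parental libraries in blue, GlnIND libraries in red, symbols for replicates 1 to 3 and bars for group means. The grey band is the level of 6 counts in 1 library, 0.230 to 0.343 CPM. Open symbols at the bottom mark 0. HS6ST2 moves from 0 to between 11.0 and 14.0 CPM, while SULF1 and SULF2 stay at or under the band in both groups.

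Ordered by RPKM, the parental libraries had EXT1 (34.5) and EXT2 (31.2) first, whose ranges overlapped, then NDST1, HS2ST1 (14.7), HS6ST1 (2.92) and NDST2 (2.89), which overlapped, and HS3ST1 (1.30). SULF2, SULF1 and HS6ST2 followed near or at 0 RPKM. In GlnIND libraries the RPKM order was EXT1 (38.0), EXT2 (21.6), NDST1 (20.6), HS2ST1 (12.9), NDST2 (4.06), HS6ST1 (3.97), HS6ST2 (2.79) and HS3ST1 (1.06), with overlap between EXT2 and NDST1 and between NDST2 and HS6ST1. HS6ST2 thus took a place between HS6ST1 and HS3ST1 without overlapping either. With the longest transcript as length, EXT2 came before EXT1 in parental cells and no longer overlapped NDST1 in GlnIND cells. Exon lengths came from GENCODE 29 (GRCh38), while the authors' annotation was not given in the sources used here. None of the 10 genes shared exon bases with another counted gene in that annotation.

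Of the 10 genes 8 passed the filter on low counts. Their CPM ranges lay above those of parental cells in GlnIND cells for 4 (HS6ST2, HS6ST1, EXT1 and NDST2), below for 3 (EXT2, HS2ST1 and HS3ST1) and overlapped for NDST1. HS6ST2 had 0 parental counts and passed the filter through its GlnIND libraries alone, so it could only lie above. The genes had also been chosen by these same levels, so the numbers above and below are a description. Over all 13949 tested genes, 33.7% lay above and 31.3% below, or 65.0% without overlap in either direction. The median log2 fold change of the 8 genes, HS6ST2 included, was 0.09, against 0.03 for all tested genes. Scaling moved all of these values together. The median of all genes was 0.12 under upper-quartile scaling and 0.18 under library totals. HS2ST1 was then at -0.10 and -0.04, and EXT1 at 0.23 and 0.29. Relative to the median of all genes, HS2ST1 stood at -0.22, EXT1 at 0.11, EXT2 at -0.56 and NDST2 at 0.46 under each of these scalings.

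The surroundings of HS6ST2 on chromosome X differed from the gene itself. Its 40 nearest tested genes had log2 fold changes with a median of -1.0, and 5 of them were above 0. MBNL3, the row next to it and a splicing regulator, averaged 73.7 CPM in the parental and 41.3 CPM in the GlnIND group. RAP2C, a small GTPase, was at 73.5 and 29.1 CPM. On the other side HS6ST2-AS1 had 0 counts in all libraries, and USP26 and TFDP3 had at most 6 counts in a group. The 4th row was GPC4, glypican 4, a membrane-anchored heparan sulfate proteoglycan. GPC4 had 0, 0 and 2 counts in parental and 126, 152 and 168 counts in GlnIND 1, 2 and 3, or 6.14 ± 0.43 CPM in GlnIND cells (SD, n = 3). In read pairs the ratio of GlnIND to parental was 175, with an exact 95% interval of 31.1 to 6950, and GPC4 was called higher (edgeR adjusted p = 1.71e-06). GPC4 passed the filter on low counts through its GlnIND libraries alone, so the direction of this call was fixed by the filter. GPC3, the next glypican along the chromosome, had 0 counts in every library. Thus 2 heparan sulfate genes in the same stretch were at or near 0 in parental cells and detected in GlnIND cells, while most expressed genes around them were lower. That both lie together was noticed in the data and was not tested.

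**Figure D3:**
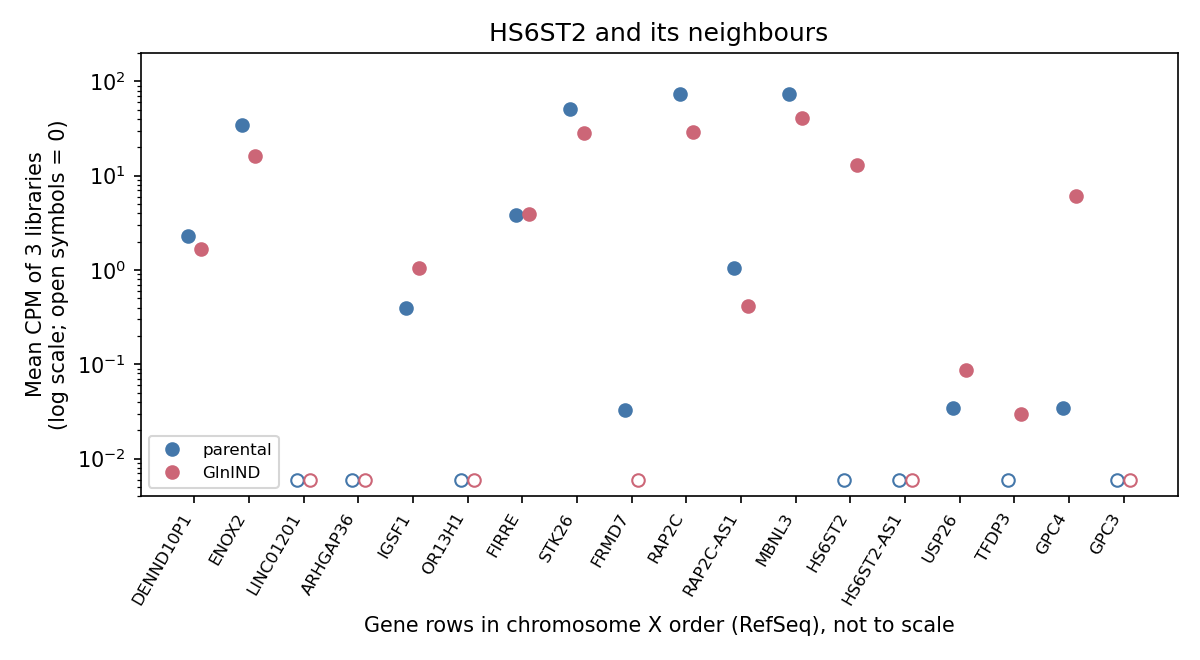
Mean CPM (log axis) of 3 parental (blue) and 3 GlnIND (red) libraries for HS6ST2 and nearby gene rows in their order along chromosome X, open symbols marking 0. MBNL3 and RAP2C are lower in GlnIND cells, whereas HS6ST2 (12.9 CPM) and GPC4 (6.14 CPM) are present in GlnIND cells and at 0 or 0.0347 CPM in parental cells.

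The 3 tested genes closest to HS6ST2 in log2 CPM over the 6 libraries, by Euclidean distance, were VAT1L (0.864), VWA5A (1.60) and ANO5 (1.66). VAT1L had 0 parental counts and 9.16 ± 0.621 CPM in GlnIND cells (SD, n = 3). VWA5A had 2 parental counts and 7.98 ± 0.405 CPM, and ANO5 had 0 parental counts and 6.59 ± 0.323 CPM (SD, 3 libraries each). None of the 3 lies on chromosome X.

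The rest of the pathway was followed in 7 lists with 99 genes, of which 80 were tested by edgeR (quasi-likelihood, Benjamini-Hochberg over all tested genes). Of these 24 rose, 29 fell and 27 were not called. Those that rose include GPC4 and SPOCK3, for which the filter on low counts fixed the direction. The share called was 66.2%, against 56.3% of all tested genes (28.4% higher and 27.9% lower), and the median log2 fold change was -0.04. The lists were chosen with earlier results of these data known, so these shares are a description.

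The linkage region, the short sugar stem that joins the chain to its protein, was tested in 6 of 7 genes, of which 2 rose, 2 fell and 2 were not called (median -0.02). B3GAT3, which completes the stem, rose from 17.5 ± 4.81 to 35.3 ± 1.02 CPM (SD, n = 3 per group; log2 fold change 1.01 with SE 0.174 and adjusted p = 0.000834 by edgeR). PXYLP1, the phosphatase that releases the stem for elongation, rose from 4.29 ± 0.211 to 8.43 ± 0.632 CPM. B3GALT6, which adds a galactose of the stem, fell from 18.8 ± 1.58 to 12.4 ± 0.201 CPM. FAM20B, a kinase of the stem and outside the naming rule, fell by 0.39 on the log2 scale. XYLT1 had 2 counts in GlnIND 2 and 0 in each of the other libraries.

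Among the other chain enzymes 8 of 15 genes were tested, of which 2 rose, 1 fell and 5 were not called (median 0.06). HS3ST3B1, a 3-O-sulfotransferase, rose from 15.4 ± 0.625 to 24.9 ± 2.19 CPM (SD, n = 3 per group; log2 fold change 0.69 with SE 0.104 and adjusted p = 0.000373 by edgeR). Its paralog HS3ST3A1 had 8 parental and 16 GlnIND counts, and reads from sequence shared by both could be split between them. HS6ST3 rose by 0.52 in log2 units, with SE 0.178 and adjusted p = 0.0301 by edgeR. That call was lost without parental 2 or 3 or GlnIND 2 or 3 (adjusted p = 0.0582, 0.0857, 0.124 and 0.101), with DESeq2 (0.0774) and with the replicate number as a block (0.0576). Without any 1 of these 4 libraries, or with the block, 1 gene of the list rose. The neighbours of HS6ST3 had a median of -0.62. HPSE, heparanase, which cuts the chain, fell by 0.30 in log2 units, with SE 0.0886 and adjusted p = 0.0162 by edgeR. The HPSE call was lost without parental 2 or GlnIND 2 or 3, when 0 genes fell, and 2 fell without parental 1. It was also lost with upper-quartile factors (adjusted p = 0.0697 by edgeR) and library totals (0.182). The neighbours of HPSE had a median of -0.32, which leaves it at 0.02. GLCE, the epimerase that makes iduronic acid, was at 62.6 ± 6.5 and 60.9 ± 2.57 CPM (SD, n = 3 each, edgeR adjusted p = 0.725). HS3ST2, HS3ST4 and HS3ST6 had 0 counts in all libraries.

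Among genes that supply sugar and sulfate donors, more fell than rose. Of 18 genes, all tested, 4 rose, 9 fell and 5 were not called (median -0.27). Those that fell included GFPT1 and GFPT2, which use glutamine to make the amino sugar precursor. GFPT1 fell from 181.2 ± 13.5 to 95.3 ± 0.442 CPM (log2 fold change -0.93 with SE 0.0697 and adjusted p = 4.99e-06 by edgeR). GFPT2 fell from 171.3 ± 3.75 to 70.3 ± 2.3 CPM (log2 fold change -1.28 with SE 0.0623 and adjusted p = 3.42e-07 by edgeR). PAPSS2, which makes the universal sulfate donor PAPS, fell by 1.38 in log2 units to 49.4 ± 2.6 CPM (edgeR adjusted p = 3.88e-07), while PAPSS1 was at 71.8 ± 5.66 and 69.7 ± 1.02 CPM (adjusted p = 0.656). SLC26A2, a sulfate transporter of the plasma membrane, rose from 53.1 ± 2.37 to 122.3 ± 5.78 CPM (log2 fold change 1.20 with SE 0.0713 and adjusted p = 1.22e-06 by edgeR). The other genes that rose were SLC35A3, SLC35D1 and UXS1, which were outside the naming rule. For UXS1 the groups overlapped, with parental 1 at 51.0 and GlnIND 3 at 50.3 CPM (edgeR adjusted p = 0.0481). Its log2 fold change was 0.24, and the median of its neighbours was 0.24. The number that rose was 2 when parental 2, parental 3, GlnIND 1 or GlnIND 2 was left out.

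Core proteins, which carry the chains, moved both ways. Of 18 genes 14 were tested, 5 rose, 7 fell and 2 were not called (median -0.41). SPOCK1, a testican secreted into the matrix, rose from 1.497 ± 0.428 to 52.8 ± 5.46 CPM (SD, n = 3 per group; log2 fold change 5.15 with SE 0.175 and adjusted p = 4.79e-08 by edgeR). In single libraries SPOCK1 was at 1.09, 1.945 and 1.46 CPM in the parental and 46.55, 56.1 and 55.8 CPM in GlnIND 1, 2 and 3. SPOCK3, a related testican, rose from 0.422 ± 0.0971 to 1.605 ± 0.36 CPM. Parental 1, 2 and 3 held 10, 8 and 6 counts of SPOCK3, at or just above the floor of 6 counts. Like GPC4, SPOCK3 passed the filter on low counts through its GlnIND libraries alone, so the direction of its call was fixed by the filter. The other genes that rose were GPC4, given above, and TGFBR3 and SDC2, which were outside the naming rule. Outside it too, the syndecans SDC3 and SDC4, the basement membrane proteoglycans HSPG2, AGRN and COL18A1, glypican GPC1 and the intracellular proteoglycan SRGN fell. SDC3 fell from 59.4 ± 4.61 to 24.1 ± 0.528 CPM and HSPG2 from 24.1 ± 4.42 to 10.45 ± 0.395 CPM (SD, 3 libraries each). The groups overlapped for GPC1, which was called lower with an edgeR adjusted p of 0.0381. GPC1 stood at 5.90, 14.13 and 13.83 CPM in parental and 6.28, 7.66 and 5.03 CPM in GlnIND 1, 2 and 3. SDC1, a further syndecan, was at 105.0 ± 29.7 and 77.1 ± 1.19 CPM (edgeR adjusted p = 0.0526).

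The list for lysosomal breakdown held enzymes that take the chain apart, and SUMF1, which activates sulfatases. It was tested in 9 of 9 genes, of which 4, SUMF1 among them, rose, 2 fell and 3 were not called (median 0.33). IDS, the sulfatase that acts on 2-O-sulfate, fell from 337.6 ± 41 to 155.5 ± 1.58 CPM (SD, n = 3 per group; log2 fold change -1.12 with SE 0.0857 and adjusted p = 5.53e-06 by edgeR). IDS lies on chromosome X among genes with a median of -0.85, which leaves -0.27. IDUA, which removes iduronic acid, rose by 1.06 on the log2 scale, and ARSG, a sulfatase for 3-O-sulfate, rose by 0.94. Both share exon bases with a gene on the opposite strand that also had more counts in GlnIND cells. SLC26A1 covers 5.6% of IDUA and had 63 and 167 counts. WIPI1 covers 11.4% of ARSG and had 685 and 1314 counts. The strand setting was not given in the sources used here, and the part of these reads in the 2 calls was not tested.

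Heparin-binding ligands and FGF receptors, whose signalling can involve the chain, were tested in 10 of 16 genes. Of these 6 fell, 4 were not called and 0 rose by edgeR (median -0.74), with 0 higher at an unadjusted p under 0.05 and 0 higher by DESeq2 and limma-voom. With library totals alone 1 gene, FGF5, rose. MDK, the growth factor midkine, fell from 22.6 ± 2.52 to 1.94 ± 0.246 CPM (SD, n = 3 per group; log2 fold change -3.53 with SE 0.154 and adjusted p = 1.98e-07 by edgeR). FGFR4 fell by 1.33 and VEGFA by 1.18 in log2 units (edgeR adjusted p = 0.000545 and 4.42e-07). FGFR1, another FGF receptor, was at 118.8 ± 6.78 and 121.0 ± 4.05 CPM (adjusted p = 0.761). FGF2 had 20 parental and 8 GlnIND counts and was not tested.

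Chondroitin and dermatan sulfate genes draw on the same linkage region. Of 16 genes 15 were tested, 7 rose, 2 fell and 6 were not called (median 0.33). CSGALNACT1, which starts a chondroitin chain, rose from 2.18 ± 0.345 to 4.64 ± 0.46 CPM, and DSEL, an epimerase of dermatan sulfate, rose from 10.35 ± 2.04 to 19.4 ± 2.95 CPM (SD, 3 libraries each). CHST11, the main chondroitin 4-O-sulfotransferase, fell from 212.5 ± 5.97 to 96.9 ± 2.76 CPM (log2 fold change -1.13 with SE 0.0608 and adjusted p = 6.54e-07 by edgeR). CHSY1, a chondroitin polymerase outside the naming rule, fell by 0.20. The genes that fell numbered 4 without parental 1, and 1 without parental 2, without GlnIND 1, 2 or 3, and with a block for replicate number.

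**Figure D4:**
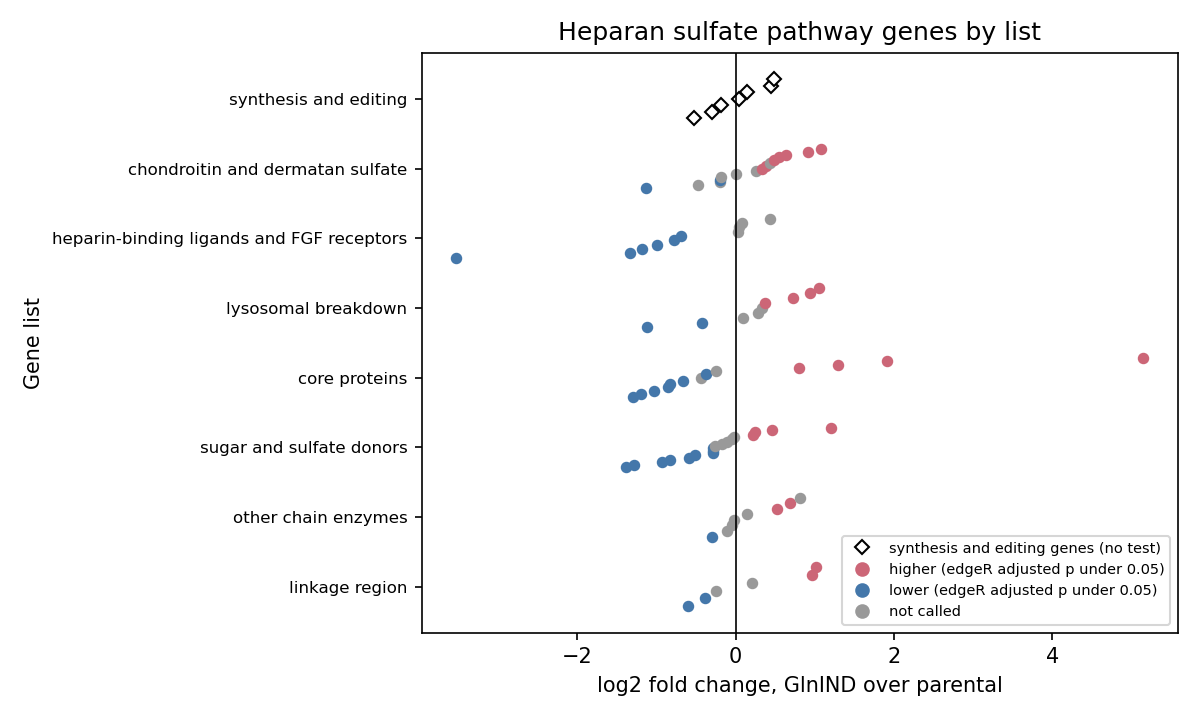
Log2 fold change of GlnIND over parental for each tested gene of the 7 lists, coloured by its edgeR call, and for 7 of the 10 synthesis and editing genes (open diamonds, no test). HS6ST2 and GPC4, at 0 and 2 parental counts, are left out. The 7 diamonds lie between -0.53 and 0.49, and the heparin-binding list shows 6 genes lower and 0 higher.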

How the data were processed

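RNA was measured in 6 libraries of polyA-selected RNA, 3 parental and 3 GlnIND, made with the Kapa mRNA HyperPrep kit, per the labels' protocols. Deposited values are unnormalised counts of reads for each gene symbol. The submitters' processing notes name hg19, STAR, featureCounts, FastQC and DESeq. Not given in the sources used here are versions, annotation, strand setting and the handling of multi-mapped reads. A deposited matrix held the same counts with replicates 1 and 3 exchanged within each group (100% of genes equal), so replicate numbers follow the per-library tables.

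Counts were tested with edgeR 4.0.16 in R 4.3.3 (quasi-likelihood, two-sided, TMM factors, filterByExpr minimum count of 10 and total of 15, group alone), checked on simulated data. Of 28265 rows 13949 were tested, and called genes had an adjusted p under 0.05. The 10 genes, the lists and the tests were chosen with earlier results of these data known. SE values come from the F statistic. Named genes were the 10 genes, the 3 most changed among the called genes of each list (at 1 CPM or more on average in a group), list genes with 0 to 6 counts in 1 group and at least 1 CPM in the other, the 3 genes nearest to HS6ST2, GFPT1 and GFPT2. Neighbours were the 20 tested genes on each side in RefSeq order, which 27635 rows matched. Of the list genes, 1 was found under an older symbol. Alternatives were other scalings and filters, libraries left out, a replicate block, DESeq2 1.42.0, limma-voom (limma 3.58.1), an adjusted p under 0.01 and the neighbour shift.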

Additional observations from a re-analysis of the deposited data

How the results depend on the processing

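All genes called higher and lower numbered 3965 and 3888, and 4749 and 3204 under upper-quartile scaling and 5356 and 2810 under library totals. Leaving out 1 library gave 3151 to 4601 higher and 3337 to 4679 lower. Same-numbered libraries did not deviate together (correlations -0.063, 0.03 and -0.037), and parental 1 correlated best with GlnIND 3. With the replicate number as a block 3719 genes were higher and 3584 lower, and the counts were 1 for other chain enzymes higher, 2 for donors higher and 1 for chondroitin genes lower.

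With upper-quartile factors or library totals alone 0 other chain enzymes and 1 chondroitin gene fell, and 3 other chain enzymes and 3 linkage genes rose. With library totals 1 heparin-binding gene rose and 6 donor genes fell. With no filter on low counts, or with DESeq2, 2 donor genes rose. At an adjusted p under 0.01, 1 other chain enzyme rose and 0 fell, 2 donor genes rose and 1 chondroitin gene fell. Without 1 library each, other chain enzymes higher numbered 1 to 3 and lower 0 to 2, donors higher 2 to 4 and chondroitin genes lower 1 to 4. NDST1 ranged from -0.04 to 0.08 without 1 library each, turning to -0.04 without parental 1, to 0 without GlnIND 2 and to -0.02 with the neighbour shift removed. The cause of these moves was not tested. The other 179 of 210 list counts stayed within 1.5 times. HS6ST2 had no bound under DESeq2, limma-voom or the block, and SULF1 and SULF2 have too few counts for any comparison.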
